A study of Mus musculus with 24 samples.

Results

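The genes of the urea cycle and of amino acid breakdown were followed through cultures of mouse liver cells. The set holds 9 genes, chosen by name for their place in these pathways, with earlier results of these data known: Cps1, Otc, Ass1, Asl, Arg1, Arg2, Glul, Tat and Hpd. Each of the 9 genes had 1 row in each of the 3 deposited expression tables, which list 31053, 25876 and 20729 genes.

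The cells came from livers of wild-type BALB/c mice of 6 to 8 weeks, and no group carried an altered gene. The first table holds primary hepatocytes (Pri-Hep) and hepatocyte organoids (Hep-Orgs) at passages P1, P5 and P10, grown from the fraction of a Percoll gradient without the surface protein EpCAM, in a medium with the Notch inhibitor DAPT and dexamethasone. The second table holds organoids of cholangiocytes, the cells that line the bile ducts (Cho-Orgs, at P0, P5 and P10), grown from EpCAM-positive cells in a medium without DAPT and dexamethasone that held Wnt3a, noggin and forskolin. The hepatocyte medium held CHIR99021 in place of Wnt3a, and both media held R-spondin1. Each of these 7 groups had 3 bulk mRNA libraries, and the third table holds Smart-Seq libraries, made from amplified full-length cDNA, of P0 Hep-Orgs of 3 shapes (round-like, intermediate, grape-like), with 1 library for each shape. The study describes these shapes, and picking them for sequencing, in an earlier hepatocyte medium, before it added DAPT and dexamethasone. With both added, it reports a rounded form and the loss of the grape-like and intermediate shapes. The sample titles name no medium.

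The urea cycle disposes of ammonia and runs as a complete pathway in hepatocytes. Cps1 and Otc act in the mitochondrion and make citrulline, Ass1 and Asl turn it into arginine in the cytosol, and arginase 1 releases urea. In the liver lobule, the urea cycle enzymes lie mainly around the portal tract, while glutamine synthetase (Glul), which fixes ammonia into glutamine, is confined to a rim of hepatocytes around the central vein. Tat and Hpd carry out the opening steps of tyrosine breakdown, and Tat is a classic target of glucocorticoids in liver.

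The values are FPKM, in which the fragments of a gene are divided by its length and by the number of fragments in the library, so levels of different genes may be compared within a table. The 3 tables were normalized separately, and levels set side by side across them are a description only. The first table rested on 14068906 to 27160365 fragments per library, while about 37400000 to 39780000 were estimated for the Cho-Orgs libraries and about 39580000 to 40500000 for the Smart-Seq libraries. The libraries of the first table went against the hepatocyte label: in Pri-Hep, Alb, which encodes albumin, had a mean of 112 FPKM, while the bile duct keratin Krt19 had 237 FPKM and the biliary gene Spp1 had 3144 FPKM. The summed level of 10 hepatocyte markers was 608 to 641 FPKM in Pri-Hep, against 3823 to 3920 FPKM for 9 cholangiocyte markers. In Cho-Orgs P0 the hepatocyte sum was 7209 to 8141 FPKM, and at P10 it was 77.8 to 83.3 FPKM. In bulk libraries, fewer cells of a type and less RNA per cell cannot be told apart.

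The 9 genes lie apart from each other in the genome (mm10). Cps1 is at chr1:67123026-67231259 on the plus strand, and Glul is on the same chromosome at chr1:153899944-153909723. Asl, at chr5:130011258-130029247, and Hpd, at chr5:123171807-123182727, share chromosome 5 and its minus strand. Otc lies at chrX:10252305-10321024, Ass1 at chr2:31470207-31520672, Arg1 at chr10:24915221-24927484, Arg2 at chr12:79130777-79156301 and Tat at chr8:109990437-109999803. All are protein-coding, and an FPKM counts fragments over the exons of the gene.

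Both arginases split arginine into urea and ornithine. Arg1 is the cytosolic enzyme of the hepatocyte urea cycle, and Arg2 is a mitochondrial enzyme of other tissues. Their coding sequences are 972 and 1065 bases long and matched at 62.8% of 971 aligned bases. The longest run that both share is 12 bases, printed in capitals within the surrounding stretch of each coding sequence (mm10, GENCODE M21 transcripts, both as transcribed). The stretches are shown because the 2 genes are read apart through such differences, and they cover bases 493 to 564 of Arg1 and 550 to 621 of Arg2, counted from the first base of the start codon.
Arg1: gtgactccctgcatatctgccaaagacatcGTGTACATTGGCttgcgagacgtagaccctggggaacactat
Arg2: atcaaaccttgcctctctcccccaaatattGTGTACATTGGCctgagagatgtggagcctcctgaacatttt

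Not every gene of the set could be told from its neighbours or copies. Of the 100-base windows of Ass1 transcripts, 26.9% also occur in Gm5424, and of those of Arg2, 14.4% occur in Vti1b or Gm48780. For Glul the share was 2.30%, in Glns-ps1 and Teddm2, and for the other 6 genes it was 0%. Vti1b had 11.3 to 14.4 FPKM across the Cho-Orgs libraries, while Arg2 ranged there from 1.05 to 21.7 FPKM. In the table of Pri-Hep and Hep-Orgs, Vti1b had 36.8 to 42.1 FPKM and Arg2 had 35.8 to 42.8 FPKM. How the counting treated shared bases and strand is not given in the sources used here, so levels of Ass1 and Arg2 carry this uncertainty.

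A RefSeq promoter (GRCm38.p6, the same build as mm10) was found for 5 of the 9 genes: Otc, Ass1, Glul, Tat and Hpd. The 250 bases before the start are printed for Tat, which had the largest log2 fall of the tested genes in Cho-Orgs, for Glul, which moved little, and for Hpd, which was not detected after P0. Capitals mark each CCAAT (or ATTGG on the other strand) and each GGGCGG (or CCGCCC). The windows are chr8:109990186-109990435 on the plus strand for Tat, chr1:153899679-153899928 on the plus strand for Glul and chr5:123182724-123182973 on the minus strand for Hpd.
Tat: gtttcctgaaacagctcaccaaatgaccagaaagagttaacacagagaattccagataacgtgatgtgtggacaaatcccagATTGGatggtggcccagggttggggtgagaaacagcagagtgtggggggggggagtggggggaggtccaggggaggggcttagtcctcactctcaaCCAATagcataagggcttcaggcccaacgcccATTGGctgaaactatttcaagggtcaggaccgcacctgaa
Glul: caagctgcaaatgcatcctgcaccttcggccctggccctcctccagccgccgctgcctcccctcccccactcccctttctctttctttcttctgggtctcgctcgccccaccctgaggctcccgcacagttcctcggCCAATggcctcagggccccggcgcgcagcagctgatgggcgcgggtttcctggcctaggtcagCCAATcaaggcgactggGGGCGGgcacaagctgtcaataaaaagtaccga
Hpd: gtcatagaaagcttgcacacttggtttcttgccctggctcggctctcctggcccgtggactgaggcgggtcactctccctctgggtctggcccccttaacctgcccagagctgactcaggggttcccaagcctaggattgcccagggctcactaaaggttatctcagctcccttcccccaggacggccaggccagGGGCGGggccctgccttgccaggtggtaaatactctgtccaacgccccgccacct
The Tat window held 3 CCAAT matches, 1 on the plus strand and 2 on the minus strand, at bases -168 to -164, -72 to -68 and -40 to -36 from the start. The Glul window held 2 CCAAT matches and 1 GGGCGG match, and the Hpd window held 1 GGGCGG match, none of them overlapping. Among 32851 promoter windows of the same length, 33.8% held CCAAT and 32.7% held GGGCGG on either strand. TATAAA (12.4% of all windows), TGTTCT (16.1%), TGACGTCA (1.55%), CAAAGTCCA (0.384%) and TTGCGCAA (0.164%) had no match in the windows of these 5 genes. The bases G and C made up 53.6% of the Tat window, 64.8% of the Glul window and 62.8% of the Hpd window, against a median of 52.4% over all windows.

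In the first table, which sets Hep-Orgs beside the libraries labelled primary hepatocytes, the genes kept one order in all 4 groups. Since these libraries went against that label, level values here do not show that hepatocyte expression was kept. Glul was the most abundant gene of the set, Ass1 and Arg2 followed, Asl stood lower, and Cps1, Tat, Hpd, Arg1 and Otc were near or under 1 FPKM. Neighbours in this order were not always apart, since Ass1 and Arg2 overlapped in Pri-Hep, P5 and P10, Hpd and Arg1 overlapped in Pri-Hep and P5, and Tat and Hpd overlapped at P1. The plot of the 9 genes by library shows this flat course for the first 4 groups.

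Glul had 226, 215 and 223 FPKM in the Pri-Hep libraries and 226, 221 and 226 FPKM at P1. It had 219, 219 and 221 FPKM at P5 and 217, 217 and 222 FPKM at P10. The 4 groups overlapped, and the level placed Glul at rank 150 of the genes in Pri-Hep.

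Ass1, which joins citrulline to aspartate, had 45.1, 39.4 and 40.4 FPKM in Pri-Hep and 43.0, 41.2 and 41.9 FPKM at P1. It had 41.1, 42.8 and 50.5 FPKM at P5 and 42.4, 39.9 and 41.1 FPKM at P10. Replicate 3 of P5 was the highest library, and the groups overlapped. Asl, which cleaves argininosuccinate to arginine, had 7.61, 8.18 and 8.74 FPKM in Pri-Hep and 8.71, 9.07 and 8.73 FPKM at P1. It had 9.50, 9.52 and 8.49 FPKM at P5 and 8.003, 8.30 and 7.66 FPKM at P10, so that the 3 libraries of P10 lay below those of P5.

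Arg2 had 40.1, 40.5 and 42.8 FPKM in Pri-Hep and 38.4, 35.8 and 37.7 FPKM at P1. It had 42.2, 38.4 and 40.3 FPKM at P5 and 37.7, 38.7 and 42.5 FPKM at P10. The P1 libraries lay below the Pri-Hep libraries and, by 38.40 against 38.42 FPKM at the nearest, below those of P5, while P10 overlapped with every group. Arg1, the arginase of the hepatocyte cycle, had 0.0749 to 0.204 FPKM in Pri-Hep and 0 to 0.162 FPKM in the Hep-Orgs libraries, which came to 55 fragments in 12 libraries.

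Cps1, the entry enzyme of the cycle, had 0.817, 1.00 and 1.40 FPKM in Pri-Hep and 0.813, 0.925 and 1.01 FPKM at P1. It had 1.05, 0.954 and 1.15 FPKM at P5 and 1.05, 0.795 and 0.879 FPKM at P10. Replicate 3 of Pri-Hep was the highest library, and the groups overlapped. Otc, the next enzyme, had 1 fragment in 1 Pri-Hep library and 0 in the other 11, where a count of 0 allows up to 0.0260 to 0.0504 FPKM (3 fragments, counting error only).

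Tat had 0.458, 0.389 and 0.509 FPKM in Pri-Hep, and 0.198 to 0.621 FPKM in the Hep-Orgs libraries, from 13 to 29 fragments each. Hpd, which follows Tat in tyrosine breakdown, ranged from 0.0737 to 0.301 FPKM over the 12 libraries, from 3 to 11 fragments each.

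Glul, Ass1, Arg2, Asl and Cps1 had at least 1 FPKM in at least 3 libraries and were tested. With all Hep-Orgs against Pri-Hep, 0 of these 5 genes passed an adjusted p of 0.05 in limma and 0 were under an unadjusted p of 0.05, where 0% of the 10986 genes tested were called. The log2 fold change of FPKM + 1 was -0.07 (SE 0.038) for Arg2, 0.07 (SE 0.042) for Asl, 0.03 (SE 0.053) for Ass1, -0.07 (SE 0.079) for Cps1 and -0.00 (SE 0.017) for Glul. The smallest of the 5 adjusted p-values in limma was 0.610, for Arg2. In limma-voom on the recovered fragments, 0 of the 5 genes passed and 0 were under an unadjusted p of 0.05, where 0.0910% of all genes were called.

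In the 6 comparisons between single groups, 0 of the 5 genes passed in limma or limma-voom. The share of all genes called by limma was 0.00910% at P1 against Pri-Hep (1 gene, higher), 0.00910% at P5 against Pri-Hep (1 gene, lower) and 0.0273% at P10 against P5 (0.0182% higher and 0.00910% lower), and it was 0% in the other 3. Limma-voom called 0.264% at P1 against Pri-Hep, 0.309% at P5 against Pri-Hep, 0.246% at P10 against P5, 0.237% at P10 against P1 and 0% in the other 2. At an unadjusted p under 0.05, limma singled out Arg2 at P1 against Pri-Hep (log2 fold change -0.14, adjusted p = 0.472) and Asl at P5 against Pri-Hep (0.15, adjusted p = 0.354). Of all 10986 genes, 911 and 1184 were under it in these comparisons. It also singled out Arg2 at P5 against P1 (0.11, adjusted p = 1.00) and Asl at P10 against P1 (-0.13, adjusted p = 0.488), where 436 and 986 of all genes were under it. The lowest adjusted p in limma of any of the 5 genes was 0.248, for Asl at P10 against P5 (log2 fold change -0.18, SE 0.052). There 1266 of all genes were under an unadjusted p of 0.05 in limma. Limma-voom put 2 of the 5 genes and 1222 of all genes under it there, with 0 of the 5 past the threshold. Between pairs of libraries the counts differed by more than sampling noise. Whether any libraries came from the same culture or the same RNA was not tested. The chi-square per degree of freedom was 1.95 to 3.20 within a group (median 2.24). Between groups it was 1.83 to 4.65 (median 2.57), so that pairs from different groups overlapped in this measure with pairs from the same group.

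**Figure D1:**
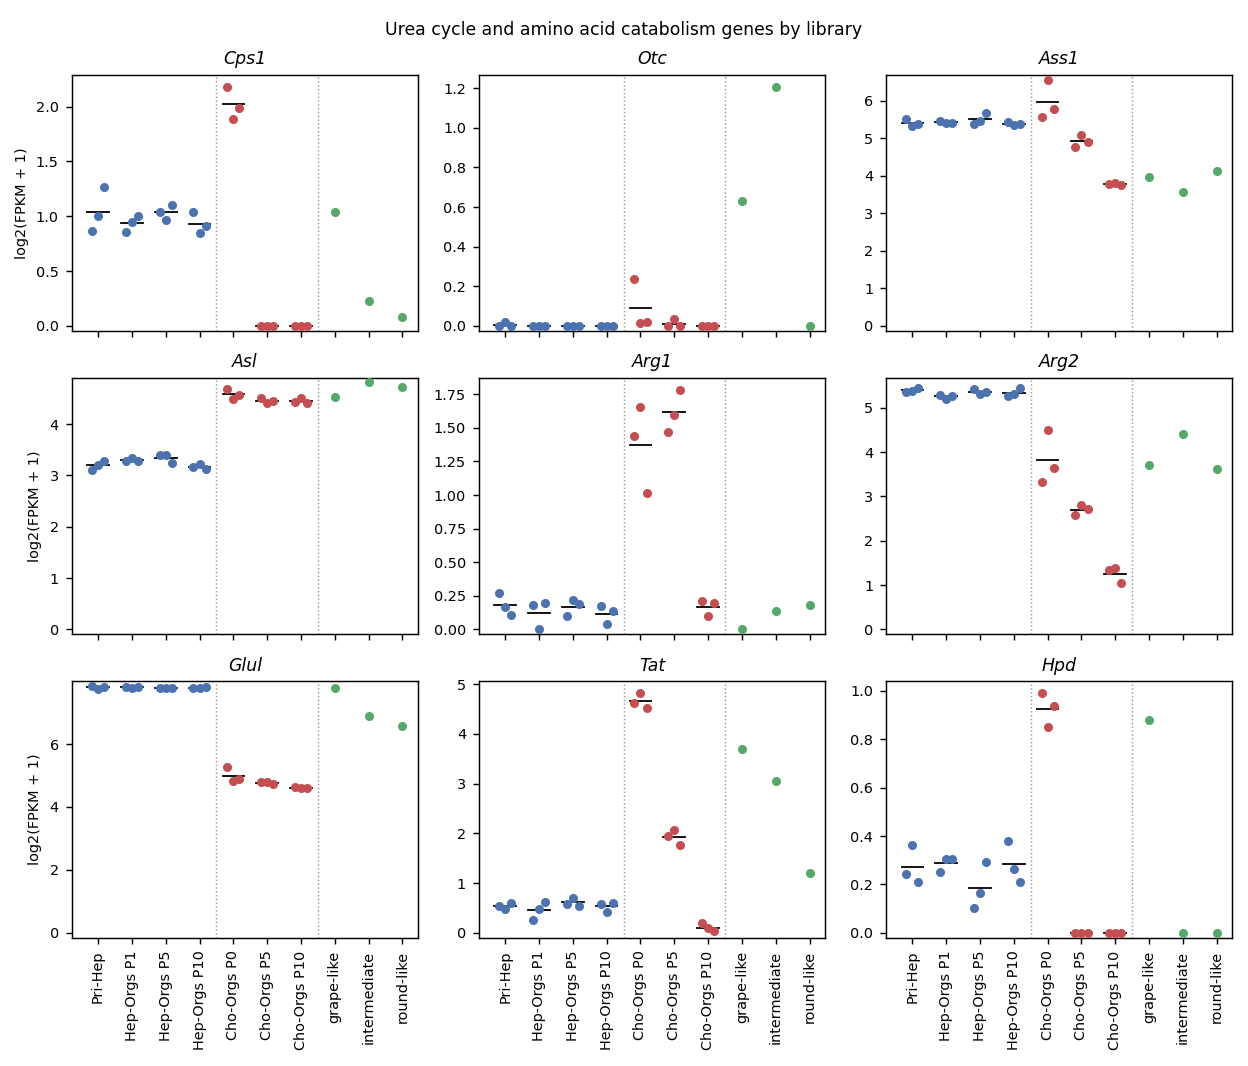
Each panel plots log2(FPKM + 1) of 1 gene by group, with 1 point per library (blue for the table of Pri-Hep and Hep-Orgs, red for Cho-Orgs, green for Smart-Seq), a black line at the group mean where there are 3 libraries, and dotted lines between the separately normalized tables. The blue groups are level in each panel, while in the red groups Tat, Ass1 and Arg2 step down at each passage, Arg1 drops at P10, Cps1 and Hpd are at 0 from P5, and Asl and Glul stay within a narrow range.

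The Cho-Orgs moved. From P0 to P10, Tat, Arg2, Ass1, Cps1, Arg1 and Glul fell and Asl was level, and the summed level of the 9 genes went from 144 to 197 FPKM at P0 to 57.4 to 60.0 FPKM at P10. Of the 9 genes, 7 were tested, and Otc and Hpd did not reach 1 FPKM in 3 libraries. Cps1 was tested through its P0 libraries alone, so that its fall follows in part from the filter.

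Cps1 had 3.54, 2.70 and 2.98 FPKM in the P0 libraries and 0 in each of the 6 libraries of P5 and P10. With a floor of 3 fragments per library, this is at least 215-fold lower at P5 and at least 212-fold lower at P10. These bounds are approximate, since the gene length was taken from the first table and the depth was estimated. Otc had 0.179, 0.0119 and 0.0122 FPKM at P0, where replicate 1 held most of the signal. It had 0.0249 FPKM in 1 library at P5 and was at 0 in the other 5 libraries of P5 and P10.

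Ass1 had 46.8, 93.0 and 53.8 FPKM at P0, 26.1, 33.3 and 29.2 FPKM at P5 and 12.9, 13.1 and 12.5 FPKM at P10. Replicate 2 of P0 was the highest, and the 3 groups did not overlap. The mean was 2.19-fold higher at P0 than at P5 and 2.31-fold higher at P5 than at P10. In limma the log2 fold change was -1.04 (SE 0.21, adjusted p = 0.00191) from P0 to P5 and -1.14 (SE 0.21, adjusted p = 0.000992) from P5 to P10. Without replicate 2 of P0 the early change was -0.75.

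Asl, the partner of Ass1 in the cytosol, had 24.7, 21.6 and 22.8 FPKM at P0, 21.9, 20.3 and 20.9 FPKM at P5 and 20.5, 21.8 and 20.3 FPKM at P10. All groups overlapped, and P10 differed from P0 by a log2 fold change of -0.14 (SE 0.060, adjusted p = 0.0652 in limma). Asl passed the threshold with median-ratio size factors (-0.21, adjusted p = 0.00596) and without replicate 2 of P0 (-0.18, adjusted p = 0.0195). The ratio of Ass1 to Asl went from 2.86 ± 1.28 at P0 to 1.41 ± 0.224 at P5 and 0.615 ± 0.0148 at P10 (SD, n = 3 each). Ass1 was above Asl in every P0 and P5 library and below it in every P10 library.

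Arg2 had 9.10, 21.7 and 11.5 FPKM at P0, 4.99, 5.94 and 5.56 FPKM at P5 and 1.54, 1.60 and 1.05 FPKM at P10. Again replicate 2 of P0 was the highest, and the groups did not overlap. The mean was 10.1-fold higher at P0 than at P10. The log2 fold change in limma was -1.13 (SE 0.24, adjusted p = 0.00314) from P0 to P5 and -1.44 (SE 0.24, adjusted p = 0.000643) from P5 to P10.

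Arg1 took another course. It had 1.72, 2.15 and 1.02 FPKM at P0, 1.77, 2.02 and 2.44 FPKM at P5 and 0.160, 0.0722 and 0.145 FPKM at P10. Libraries of P0 and P5 libraries overlapped, and every P10 library lay below both groups. From P0 to P5 the log2 fold change was 0.25 (SE 0.15, adjusted p = 0.187 in limma), and from P5 to P10 it was -1.45 (SE 0.15, adjusted p = 2.91e-05 in limma). On the FPKM scale, P5 was 16.6-fold higher than P10.

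The share of Arg1 in the summed FPKM of both arginases was 11.0% ± 4.23 at P0, 27.4% ± 2.72 at P5 and 8.60% ± 3.93 at P10 (SD, n = 3 each). The P5 libraries lay above the others, with Arg2 the more abundant of the pair in every library. In the table of Pri-Hep and Hep-Orgs the share was at most 0.505%, with a median of 0.321% over the 12 libraries.

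**Figure D2:**
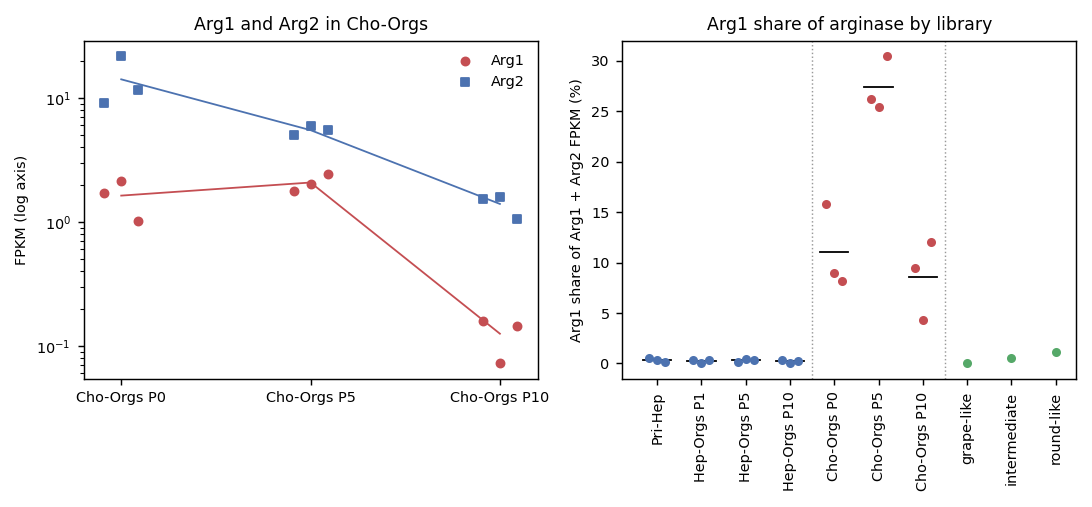
The left panel plots FPKM of Arg1 (circles) and Arg2 (squares) on a log axis for the 9 Cho-Orgs libraries, with lines through the group means, and the right panel plots the share of Arg1 in the summed FPKM of Arg1 and Arg2 in percent, 1 point per library, with a black line at the group mean and dotted lines between tables. Arg2 falls at both steps while Arg1 falls at the later step, and the share is highest in the 3 P5 libraries of Cho-Orgs, between 25.4% and 30.5%.

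Glul had 37.4, 27.4 and 28.6 FPKM at P0, 26.8, 26.4 and 25.6 FPKM at P5 and 23.8, 23.4 and 23.4 FPKM at P10. Replicate 1 of P0 was the highest, and the groups did not overlap although the step was small. P10 differed from P0 by a log2 fold change of -0.38 (SE 0.097, adjusted p = 0.00584 in limma), and neither single step passed the threshold (-0.22, adjusted p = 0.0747, and -0.15, adjusted p = 0.198, in limma). Without replicate 1 of P0 the change from P0 to P10 was -0.24 (adjusted p = 0.000917 in limma) and the early step was -0.09 (adjusted p = 0.119 in limma). The early step passed with median-ratio size factors (-0.31, adjusted p = 0.0177), and the late step passed in a fit of P5 and P10 alone (-0.15, adjusted p = 0.00423). Of 8 pericentral markers, genes of the hepatocytes in which Glul is found, 5 were tested, and Cyp1a2, Lgr5, Axin2 and Oat fell from P0 to P10 while Tbx3 rose. Of all genes tested, 72.3% were called there, 31.3% as lower and 41.0% as higher. A mean of at least 1 FPKM was reached by 5 of these markers at P0 and by 4 at P5 and at P10, with Cyp1a2 at 0 at P10. The fall of a gene tested mainly through P0 follows in part from the filter. Glul made up 19.7% ± 5.67 of the summed FPKM of the 9 genes at P0, 30.2% ± 1.45 at P5 and 40.0% ± 0.955 at P10 (SD, n = 3 each).

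Tat had 23.5, 27.2 and 22.0 FPKM at P0, 2.84, 3.17 and 2.39 FPKM at P5 and 0.139, 0.0664 and 0.0249 FPKM at P10. Each group lay below the one before it, and the P10 values rested on about 2.25 to 12.7 fragments per library. The mean was 8.65-fold higher at P0 than at P5 and 36.5-fold higher at P5 than at P10. On log2(FPKM + 1) the change in limma was -2.73 (SE 0.098, adjusted p = 3.54e-08) from P0 to P5 and -1.82 (SE 0.098, adjusted p = 4.67e-07) from P5 to P10. The pseudocount of 1 holds the later step down, since P10 lies far below 1 FPKM.

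Hpd had 0.985, 0.805 and 0.915 FPKM at P0 and 0 in every library of P5 and P10. With the same floor and the same approximations, this is at least 24-fold lower at P5 and at least 23-fold lower at P10.

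From P0 to P5, 4 of the 7 tested genes fell and 0 rose at the adjusted threshold of limma. Of the 11593 genes tested, 56.6% were called, 34.0% as higher and 22.6% as lower. Cps1 counts among the 4, although it reached the filter through P0 alone and its fall follows in part from the filter. Without replicate 2 of P0, all 7 passed, Arg1 as higher (log2 fold change 0.39, adjusted p = 0.0320 in limma). Without replicate 3 of P0 the same change of Arg1 was 0.07 (adjusted p = 0.637 in limma). From P5 to P10 again 4 of the 7 fell, with 61.5% of all genes called, 31.0% as higher and 30.5% as lower. From P0 to P10, 6 of the 7 fell, again counting Cps1, with 72.3% called, 41.0% as higher and 31.3% as lower. Median-ratio size factors moved the early calls of all genes from 3938 higher and 2621 lower to 3087 higher and 3449 lower, and none of the 4 genes that fell lost its call with them.

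The early and the late change were then compared within 1 model, in which both share the P5 libraries. The late change was lower than the early change for Arg1 (difference of log2 fold changes -1.69, SE 0.26, adjusted p = 0.000565 in limma) and higher for Tat (0.92, SE 0.17, adjusted p = 0.00170 in limma). It was also higher for Cps1 (2.02, SE 0.15). These were 3 of 7 genes, where 48.7% of all genes were called, 20.9% as higher and 27.8% as lower. For Cps1, which was at 0 from P5 and was tested through P0 alone, the late change is 0 and the difference only restates the early fall. For Tat the sign depended on the pseudocount, and with a pseudocount of 0.1 the difference was -1.01 (adjusted p = 0.0451). Ass1 (-0.09, SE 0.36), Arg2 (-0.31, SE 0.42), Asl (0.11, SE 0.10) and Glul (0.07, SE 0.17) did not pass. Without replicate 2 of P0, Arg2 passed (-0.65, adjusted p = 0.0230).

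**Figure D3:**
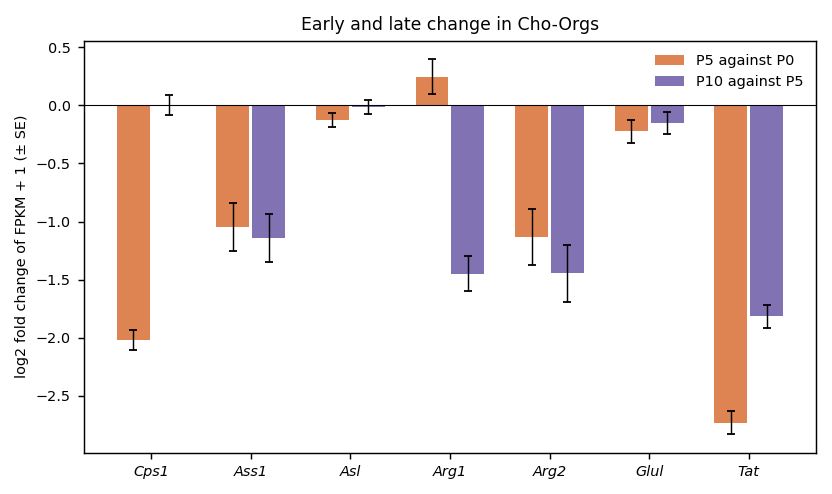
Bars give the log2 fold change of FPKM + 1 in Cho-Orgs from P0 to P5 (orange) and from P5 to P10 (purple) for the 7 tested genes, with error bars of 1 SE from limma (3 libraries per group). Ass1 and Arg2 fall by similar amounts at both steps, Arg1 falls at the later step (-1.45) and not at the earlier one (0.25), and Cps1 shows the earlier step alone.

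Other values moved along with these falls in Cho-Orgs. Of 10 hepatocyte markers, 8 were tested, and 7 fell from P0 to P5 and 5 from P5 to P10. A mean of at least 1 FPKM was reached by 8 markers at P0, 6 at P5 and 3 at P10. Some were thus tested mainly through P0, and their fall follows in part from the filter. Of all genes tested, 22.6% were lower and 34.0% higher at the first step, and 30.5% and 31.0% at the second. Alb went from 4994 FPKM at P0 to 79.5 FPKM at P5 and 0.584 FPKM at P10. Cyp2e1 and Tdo2 were at 0 at P5. The summed level of 8 proliferation genes was 321 to 467 FPKM at P0, 181 to 186 FPKM at P5 and 79.7 to 86.7 FPKM at P10, and all 8 fell at both steps. The 9 macrophage markers summed to 43.5 to 49.0 FPKM at P0, 72.1 to 77.3 FPKM at P5 and 10.1 to 10.5 FPKM at P10, and only Cd68 and Lyz2 reached the filter. Cd68 had means of 30.4, 74.5 and 9.53 FPKM. Lyz2 had 13.2 FPKM at P0 and 0 later, so it reached the filter through P0 alone. Clec4f, which marks Kupffer cells, was at 0 throughout. The 6 stellate cell markers summed to 60.8 to 75.5 FPKM at P0 and 0.174 to 0.239 FPKM at P10, of which Reln had a mean of 69.2 FPKM at P0 and 0.0816 FPKM at P10, while Dcn was at 0 from P5. The part of any of these in the course of the 9 genes was not tested.

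Around the 9 genes, 63 other genes of nitrogen and amino acid breakdown were followed in 8 lists. In the table of Pri-Hep and Hep-Orgs, 41 of them were tested and 0 passed the threshold of limma or limma-voom in any comparison. In limma 1 to 8 of them were under an unadjusted p of 0.05, as were 436 to 1266 of all 10986 genes tested there. In Cho-Orgs 49 were tested. From P0 to P5, 30 fell and 8 rose, from P5 to P10, 24 fell and 10 rose, and from P0 to P10, 37 fell and 8 rose. Of all genes tested, 22.6% were lower and 34.0% higher in the first of these comparisons, 30.5% and 31.0% in the second, and 31.3% and 41.0% in the last. At P10 against P0, the median log2 change was -0.68 over the 49 genes and 0.07 over all genes tested. Amdhd1, Hgd, Mat1a, Nos2 and Uroc1 reached the filter through P0 alone and count among those that fell.

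Of the 10 tested genes that feed or support the cycle, 8 fell and 2 rose from P0 to P10, a comparison in which 72.3% of all genes were called and 31.3% were lower. The same shares stand behind each list described next. Nags makes the activator that Cps1 needs, and it fell by 1.81 on the log2 scale (SE 0.079, adjusted p = 4.00e-08 in limma), from 3.09 FPKM at P0 to 0.907 FPKM at P5 and 0.167 FPKM at P10. Both mitochondrial carriers fell: Slc25a15, for ornithine and citrulline, fell by 1.54, and Slc25a13, for aspartate and glutamate, fell by 2.00. The glutaminase Gls2 fell by 1.58. The transaminases Got1 and Gpt2 rose by 0.49 and 0.42.

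In phenylalanine and tyrosine breakdown, the route of Tat and Hpd, all 6 tested genes fell. Fah, the last enzyme of the route, fell by 2.65 on the log2 scale. Hgd fell by 2.00, but it reached the filter through P0 alone, so that its fall follows in part from the filter.

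In methionine and cysteine breakdown, 4 of 6 tested genes fell and 1 rose. Cdo1 fell by 4.11. Mat1a fell by 3.83, but it reached the filter through P0 alone, so that its fall follows in part from the filter. Cth, which releases cysteine from cystathionine, rose by 2.17 on the log2 scale (SE 0.090, adjusted p = 3.00e-08 in limma). Of the 10 genes of branched-chain amino acid breakdown, 7 fell and 1 rose, with a median of -0.26, so that 8 of 10 were called where 72.3% of all genes were, and the one that rose was Bcat2 (0.64). Of the 8 tested genes of serine, glycine, proline and lysine breakdown, 7 fell and 1 rose. The tested histidine genes, Amdhd1 and Uroc1, reached the filter through P0 alone, so that their fall follows in part from the filter. Tryptophan breakdown had 1 tested gene, Afmid, which did not pass (-0.00).

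The genes of the list of counterparts outside the liver moved both ways, with 3 higher and 3 lower at P10 than at P0. Slc7a1, the widely expressed carrier of arginine, rose by 1.87 on the log2 scale, and Slc7a2, the carrier typical of liver, fell by 4.43. Mat2a, which makes S-adenosylmethionine outside the liver, rose by 0.65. Odc1, which takes up the ornithine that arginase makes, fell by 1.13. Nos2, which competes with arginase for arginine, fell by 1.28, but it reached the filter through P0 alone.

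**Figure D4:**
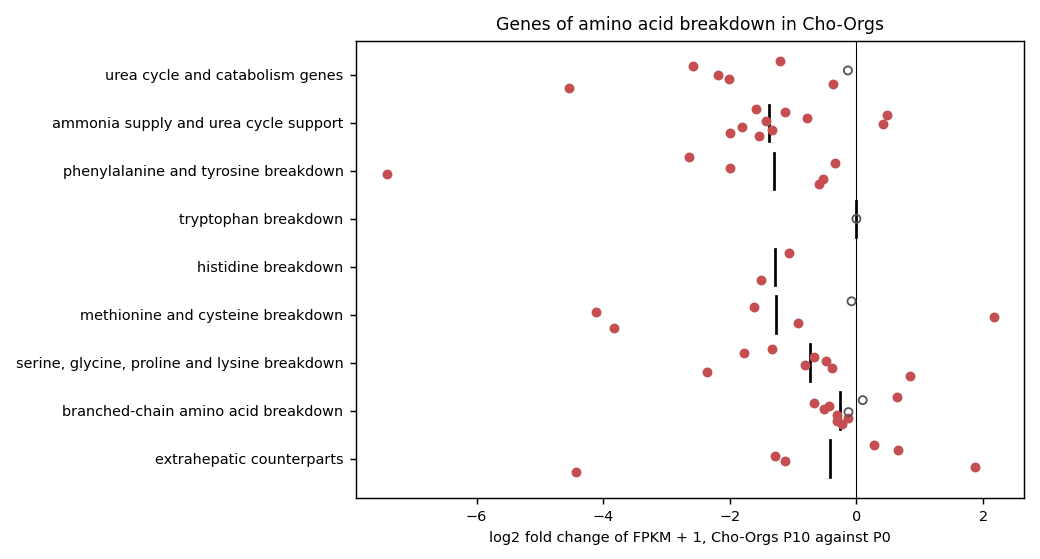
Each point is the log2 fold change of FPKM + 1 of 1 gene in Cho-Orgs P10 against P0, by list, red where it passed the adjusted threshold of 0.05 in limma and open where it did not, and black bars mark the median of each of the 8 lists of other genes. All tested genes of phenylalanine and tyrosine breakdown lie to the left of 0, among them Hgd, which reached the filter through P0 alone. Cth of the methionine and cysteine list lies furthest to the right, at 2.17.

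The genes closest in pattern to each of the 7 tested genes were read from Pearson's r of log2(FPKM + 1) over the 9 Cho-Orgs libraries, which share the passages, so that high values are common. Ass1 and Arg2 were near each other (r = 0.996), Arg2 being the closest of all genes to Ass1. For Tat the closest were Lrg1, Nags and Fgb (r = 0.999, 0.998 and 0.997), and for Cps1 they were F9, Abcc2 and F12 (r of 0.999 to 1.00). For Arg1 they were Sncg, Tmem9 and Zbtb38 (r = 0.994, 0.989 and 0.986). Asl had Rex1bd (0.972) as its closest gene and Glul had Ints10 (0.990). Cps1 was detected at P0 alone, so its r rests on the step from P0 to the later passages.

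The Smart-Seq libraries compare 3 shapes of Hep-Orgs at P0, with 1 library each, so that no test was possible and no difference has a replicate check. For Glul the grape-like library gave 220.4 FPKM, the intermediate one 117 FPKM and the round-like one 95.1 FPKM. Tat had 11.9, 7.28 and 1.30 FPKM in the same order, and Cps1 had 1.05, 0.171 and 0.0572 FPKM. These 3 genes were highest in the grape-like and lowest in the round-like library, and Tat was 9.13-fold higher in the grape-like than in the round-like library.

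In the same order, Ass1 had 14.8, 10.9 and 16.7 FPKM and Asl had 22.2, 27.1 and 25.4 FPKM. Arg2 had 12.1, 20.3 and 11.2 FPKM, and its partner Arg1 was at 0, 0.101 and 0.134 FPKM. Ass1, Asl and Arg2 thus followed no common order. Otc had 0.545 FPKM in the grape-like and 1.31 FPKM in the intermediate library and 0 in the round-like library, and Hpd had 0.839 FPKM in the grape-like library and 0 in the others.

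From grape-like to round-like, 2 of the 9 genes, Tat (log2 ratio 2.49) and Glul (1.20), differed by at least 1 on the log2(FPKM + 1) scale, where 21.8% of 12595 genes did, 12.9% as higher and 8.82% as lower in the grape-like library. From intermediate to round-like these were Tat (1.84) and Otc (1.21), where 6.39% of genes did (3.85% higher and 2.54% lower in the intermediate library). From grape-like to intermediate 0 of the 9 did, where 16.9% of genes did (9.71% higher and 7.15% lower in the grape-like library). The counting intervals, at 95% and from the estimated depth, were 2.22 to 2.75 for Tat and 1.17 to 1.23 for Glul in the pair of grape-like and round-like. For Tat from intermediate to round-like the interval was 1.57 to 2.12. Otc had about 225 fragments in the intermediate and 0 in the round-like library. Its interval, -2.79 to 5.21, is set by the count of 0 and is too wide to be of use. With the floor of 3 fragments, the count of 0 allows up to about 0.0175 FPKM. The intermediate library had 1.31 FPKM, so by counting error alone the 2 libraries were apart. The intervals cover counting error only, and amplification before sequencing adds to it.

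Markers of other cells differed between the Smart-Seq libraries as well. The 9 macrophage markers summed to 9019, 2671 and 1439 FPKM, again from grape-like to round-like, with Lyz2 at 5942, 1792 and 887 FPKM. The 6 stellate cell markers summed to 859, 231 and 162 FPKM, and the 10 hepatocyte markers to 6015, 10353 and 1401 FPKM. Krt19 had 9.86, 208 and 272 FPKM. The part of these cells in the levels of Glul, Tat and Cps1 was not tested.

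Set side by side, the tables gave different profiles of the same 9 genes. Glul made up 68.6% to 71.6% of their summed FPKM in the table of Pri-Hep and Hep-Orgs, 13.9% to 40.8% in Cho-Orgs and 63.4% to 77.7% in the Smart-Seq libraries. The ratio of Glul to Cps1 was 159 to 278 in the first table and 9.62 to 10.6 in Cho-Orgs P0, the one Cho-Orgs group with Cps1 detected, and 210 to 1664 in the Smart-Seq libraries. The ratio of Ass1 to Asl was 4.32 to 5.95 in the first table and 0.403 to 0.667 in the Smart-Seq libraries. Cps1, Otc, Arg1, Tat and Hpd together held 0.420% to 0.676% of the summed FPKM in the first table, 16.7% to 20.2% in Cho-Orgs P0, 0.231% to 0.505% in Cho-Orgs P10 and 0.998% to 5.06% in the Smart-Seq libraries.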

How the data were processed

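The values in the 24 libraries are FPKM, which the authors computed and deposited in 3 tables. The submitters' processing notes name featureCounts 2.0.3, edgeR 3.40.2 and mm10, and the aligner and annotation are not given in the sources used here. In the table of Pri-Hep and Hep-Orgs, FPKM gave back whole fragments for 100% of the values, and for the other tables depth was estimated from the steps between low values.

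The filter kept a gene where 3 or more libraries of its table reached 1 FPKM. The genes kept were compared on log2(FPKM + 1) with limma 3.58.1 (lmFit, eBayes with trend, two-sided, R 4.3.3), all groups of a table in one model, with Benjamini-Hochberg adjustment over all genes tested and a threshold of 0.05. The study's edgeR needs counts, while the deposited values are FPKM, and it was not used. For the table of Pri-Hep and Hep-Orgs, the recovered fragments were tested with limma-voom instead. The model was tested on simulated data. Sequences came from GENCODE M21 and RefSeq.

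The 9 genes and the lists were chosen with earlier results of these data known. Genes named are the 9 genes, listed genes past the threshold or among the 3 highest of their list, the 3 closest genes in pattern, and markers beside a result. Values of some listed genes are not reported here. Replicate numbers are tied to 3 mice in a figure legend of the study and to independent cultures in its methods, so p-values measure the spread between such samples. Libraries of the same number did not deviate together (median correlation -0.0016 over 18 pairs in the table of Pri-Hep and Hep-Orgs and -0.0063 over 9 pairs in Cho-Orgs). Alternatives were a pseudocount of 0.1, no filter, TPM, median-ratio size factors, a replicate block, the compared groups alone, each library left out, and limma-voom on recovered fragments.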

Additional observations from a re-analysis of the deposited data

Results flagged for a closer look

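For 2 genes the later change in Cho-Orgs (P10 against P5) differed from the earlier one (P5 against P0) in limma, with n = 3 libraries per group. The difference of log2 fold changes was -1.69 for Arg1 (adjusted p = 0.000565 in limma), which was level early and fell late in all 3 P10 libraries. It was 0.92 for Tat (adjusted p = 0.00170 in limma), and this sign changed with the pseudocount. Of all genes tested, 48.7% differed between the steps. For Cps1 the same difference was 2.02, which restates its early fall, since Cps1 was tested through P0 alone and was at 0 in all 6 later libraries.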

How the results depend on the processing

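In the table of Pri-Hep and Hep-Orgs, 0 of the 5 tested genes and 0 of the other pathway genes passed under every alternative run. There, leaving out a library moved the log2 change of all Hep-Orgs against Pri-Hep between -0.165 and 0.0367 for Cps1, -0.00601 and 0.0901 for Ass1, and -0.0247 and 0.0117 for Glul. In Cho-Orgs, it gave 4 to 7 genes past the threshold from P0 to P5 (7 without replicate 2 of P0), 4 to 4 from P5 to P10, 6 to 7 from P0 to P10 and 3 to 4 for the late minus the early change. With the replicate block these counts were 4, 4, 6 and 3, and the block changed no call. For the other pathway genes, leaving out a library gave 34 to 38, 29 to 33, 43 to 46 and 27 to 36 genes in the same order. It moved the change of Asl from P5 to P10 between -0.0410 and 0.0178, and the late minus the early change between -0.387 and 0.102 for Ass1 and between -0.0637 and 0.153 for Glul. That difference was 0.00113 for Ass1 with median-ratio size factors, and for Tat it was -1.01 with a pseudocount of 0.1 and 0.20 with TPM (adjusted p = 0.453 in limma). A pseudocount of 0.1 raised the number of the 9 genes with a log2 ratio of at least 1 to 6 from grape-like to round-like and to 4 from grape-like to intermediate, and TPM raised it to 5 and 2. Of all 12595 genes, 28.8% and 23.6% did so with that pseudocount and 26.2% and 21.5% with TPM. Otc, Hpd, Arg1 and Tat rest on few fragments in the table of Pri-Hep and Hep-Orgs and did not reach the filter of the test there.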
